A study of Mus musculus with 12 samples.

Results

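The levels of 10 genes of milk secretion were followed in mammary tumors and benign mammary tissue: the caseins Csn1s1, Csn2, Csn1s2a and Csn3, the whey proteins Wap and Lalba, the secreted mucin Glycam1, and the milk fat globule genes Btn1a1, Xdh and Mfge8. They were chosen by name, as the 10 members of a list of milk protein and milk fat globule genes, and all 10 are present among the 16411 genes of the deposited table. The mice were female, were heterozygous for the MMTV-Neu-NDL-YD5 transgene and had an FVB background, and RNA was sequenced from 6 tumors and from 6 pieces of benign mammary tissue. In this line the MMTV promoter drives an activated HER2 (neu) with an added-back YD tyrosine site in mammary epithelium. Both groups carry the transgene, so the benign samples are tissue without a visible tumor from transgenic mice, not tissue of wild-type mice. Tumors and benign samples came from different mice, and the labels give no ages.

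Milk proteins are made by alveolar luminal cells of the mammary gland, mostly in late pregnancy and lactation, under prolactin acting through its receptor, JAK2 and STAT5, together with glucocorticoids and the factor ELF5. Caseins assemble into micelles that carry calcium and phosphate, whey proteins stay in solution, and fat leaves the cell as globules wrapped in a membrane that holds butyrophilin, xanthine dehydrogenase and MFG-E8. In the mouse the casein genes lie next to each other on chromosome 5.

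Total counts ranged from 5240853 to 8588567 per sample and were of similar size in both groups (median 7363876 in benign tissue and 7344038 in tumors, n = 6 each). Values are CPM, counts relative to the total of each library (scaled by TMM to a common size), and differences were tested with edgeR's quasi-likelihood test over the 13191 genes that passed the expression filter, with a gene called at an adjusted p under 0.1. Erbb2, which encodes HER2, rose from 56.8 ± 11.2 CPM in the benign group to 7411 ± 5090 CPM in the tumor group (SD, n = 6 each), with all 6 tumors above all 6 benign samples. Several benign samples held transcripts of other tissues. The summed level of 9 skeletal muscle genes was 51777, 34280 and 88175 CPM in benign samples 3, 4 and 6, against 32.4 to 378 CPM in benign samples 1, 2 and 5. That of 5 brown fat markers was 2477 CPM in benign sample 4, 575 CPM in benign sample 6 and at most 105 CPM in the others. The summed level of 7 lymph node genes was 487 CPM in benign sample 1 and at most 7.04 CPM in the others. The fold changes of the milk genes are also given against benign samples 1, 2 and 5 alone. In bulk tissue, fewer cells of a type and less RNA per cell cannot be told apart.

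Of the 10 milk genes, 9 passed the expression filter, and the casein genes split into opposite directions. Csn3 and Lalba were called higher in tumors, Csn1s1, Csn2 and Csn1s2a were called lower, and Wap, Btn1a1, Xdh and Mfge8 were not called. The same 5 genes were called against benign samples 1, 2 and 5 alone. Glycam1 was called lower there too, but that choice leaves out both benign samples without Glycam1 counts, so its call is not counted. Over all genes tested, 28.2% were called higher and 34.8% lower, so the counts of 2 higher and 3 lower among 9 are not far from the background. The median log2 fold change of the 9 milk genes was 0.25, and that of all genes tested was -0.06. The size of the changes is plain in the plot of fold changes, where the 5 called genes lie beyond 4 log2 units from 0 in either direction.

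**Figure D1:**
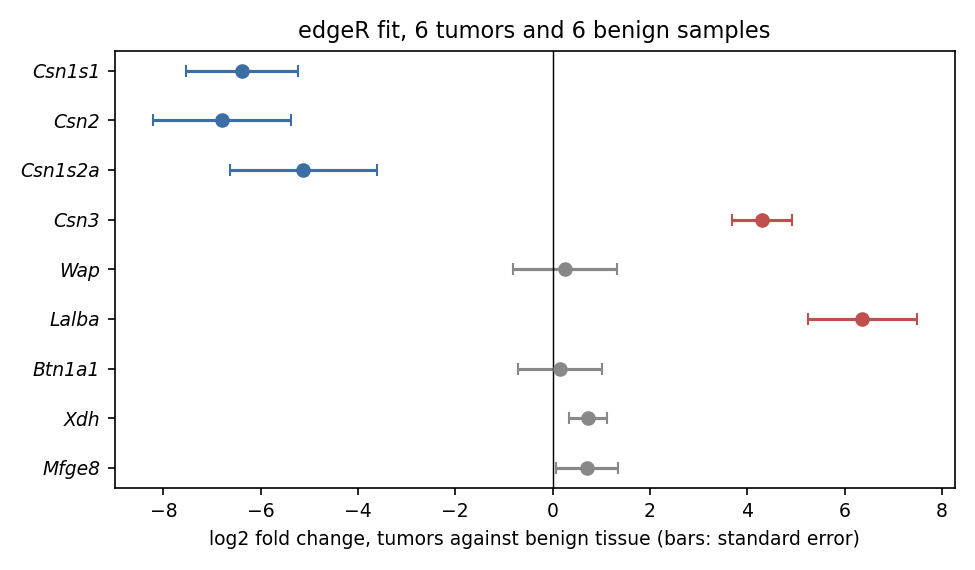
Log2 fold change of tumors (n = 6) against benign tissue (n = 6) for the 9 milk genes that passed the expression filter, with points for the edgeR estimate and bars for its standard error. Blue points were called lower (Csn2 at -6.80, Csn1s1 at -6.38, Csn1s2a at -5.13), red points were called higher (Lalba at 6.36, Csn3 at 4.31), and grey points were not called.

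Csn1s1 encodes alpha-S1 casein, a calcium-binding casein of the micelle core. It had 702, 1681, 3885, 309.6, 1814 and 163 CPM in benign samples 1 to 6, and 1.71, 63.3, 3.85, 26.5, 4.09 and 3.73 CPM in tumors 1 to 6. All 6 tumors lay below all 6 benign samples, a separation seen in 21.2% of the genes tested. The means ± SD were 1426 ± 1388 CPM for benign samples and 17.2 ± 24.4 CPM for tumors, and the fitted log2 fold change was -6.38 (standard error 1.15, edgeR adjusted p = 0.00042).

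Csn2 encodes beta casein, the other main casein of the micelle core. It had 505, 1708, 4432, 163, 1768 and 67.1 CPM in benign samples 1 to 6, and 0.156, 53.8, 6.5, 14.4, 0.895 and 1.98 CPM in tumors 1 to 6. The groups did not overlap, and the same pair of tumors, 2 and 4, held the highest levels as for Csn1s1. Csn2 fell from 1441 ± 1644 to 13.0 ± 20.7 CPM, a log2 fold change of -6.80 (standard error 1.42, edgeR adjusted p = 0.0012).

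Csn1s2a encodes an alpha-S2-like casein, also of the calcium-sensitive kind. Its lowest, median and highest values were 18.8, 139.9 and 1996 CPM among benign samples and 0.467, 2.49 and 63.7 CPM among tumors. Tumor 2, at 63.7 CPM, lay inside the benign range, above benign samples 1, 4 and 6, and the other 5 tumors lay below every benign sample. Its log2 fold change was -5.13 (standard error 1.51, edgeR adjusted p = 0.011).

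These 3 caseins differed widely between samples of the same group, and single samples moved the size of the fall. Without tumor 2 the log2 fold changes were -7.40 for Csn1s1, -8.15 for Csn2 and -7.28 for Csn1s2a. Without benign sample 3, which held the highest level of all 3 genes and also skeletal muscle transcripts, they were -5.77, -6.03 and -3.43. Against benign samples 1, 2 and 5 alone, which held little muscle RNA, the log2 fold changes were -6.32, -6.66 and -4.06, and all 3 genes were still called lower (edgeR adjusted p = 0.00086, 0.0015 and 0.021).

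Csn3 encodes kappa casein, which coats the micelle and keeps it soluble. It had 248, 496, 688, 453, 643 and 299 CPM in benign samples 1 to 6, and 15737, 11737, 13522, 11615, 1883 and 1389.8 CPM in tumors 1 to 6. Every tumor lay above every benign sample, a separation seen in 14.7% of the genes tested. Tumors 5 and 6 stood well below the other 4 tumors and still above the highest benign sample. Csn3 rose from 471 ± 177 to 9314 ± 6134 CPM, a log2 fold change of 4.31 (standard error 0.62, edgeR adjusted p = 6.4e-05). It was 4.37 against benign samples 1, 2 and 5 alone (edgeR adjusted p = 0.0035).

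**Figure D2:**
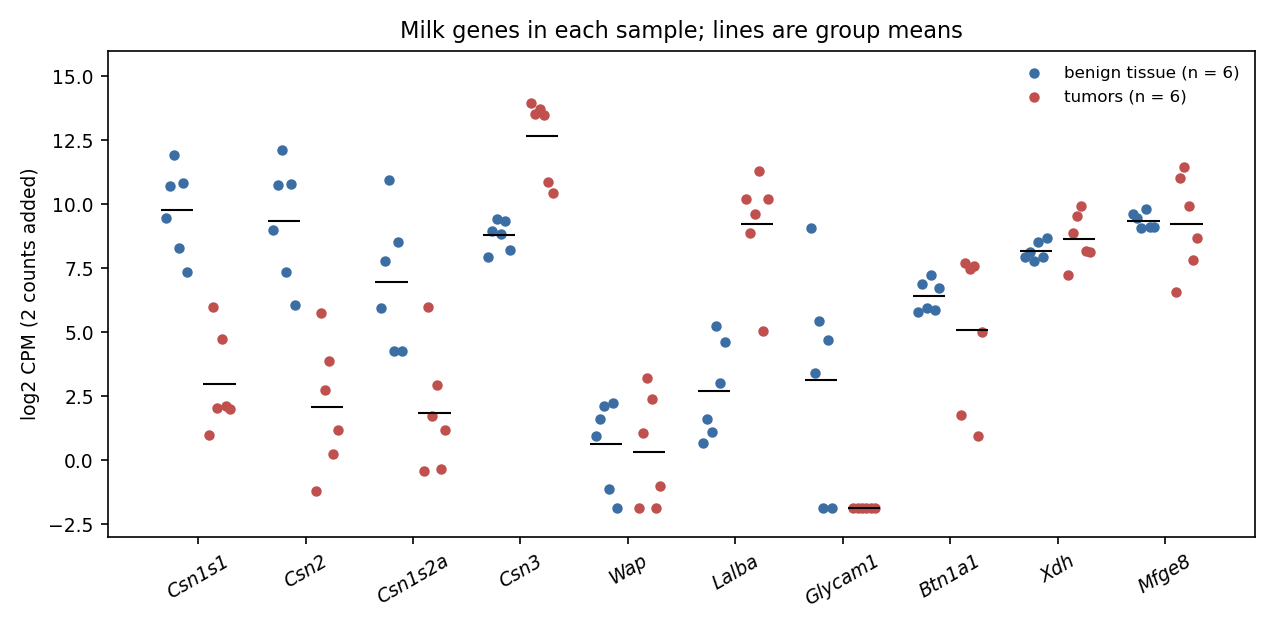
Log2 CPM (2 counts added before scaling) of the 10 milk genes in each of the 6 benign samples (blue) and 6 tumors (red), with black lines for the group means on the log scale. Csn1s1 and Csn2 lie lower in all 6 tumors and Csn3 lies higher in all 6, while the tumor points of Btn1a1 and Mfge8 spread to both sides of the benign points.

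The make-up of casein mRNA changed with these opposite moves. Per kb of annotated transcript, Csn3 made up a median of 12.9% of the summed level of the 4 caseins in benign tissue, with a range of 4.96% to 50.1%. In tumors its share was 97.9% to 99.98%, with a median of 99.6%. The share of Csn3 was highest in benign samples 4 and 6, at 43.9% and 50.1%, where Csn1s1 and Csn2 were lowest. The ratio of Csn1s1 to Csn2 was between 0.877 and 2.43 in benign samples and ran from 0.593 to 11 in tumors, where the highest ratio came from tumor 1, with 11 counts of Csn1s1 and 1 count of Csn2, too few to fix a ratio.

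**Figure D3:**
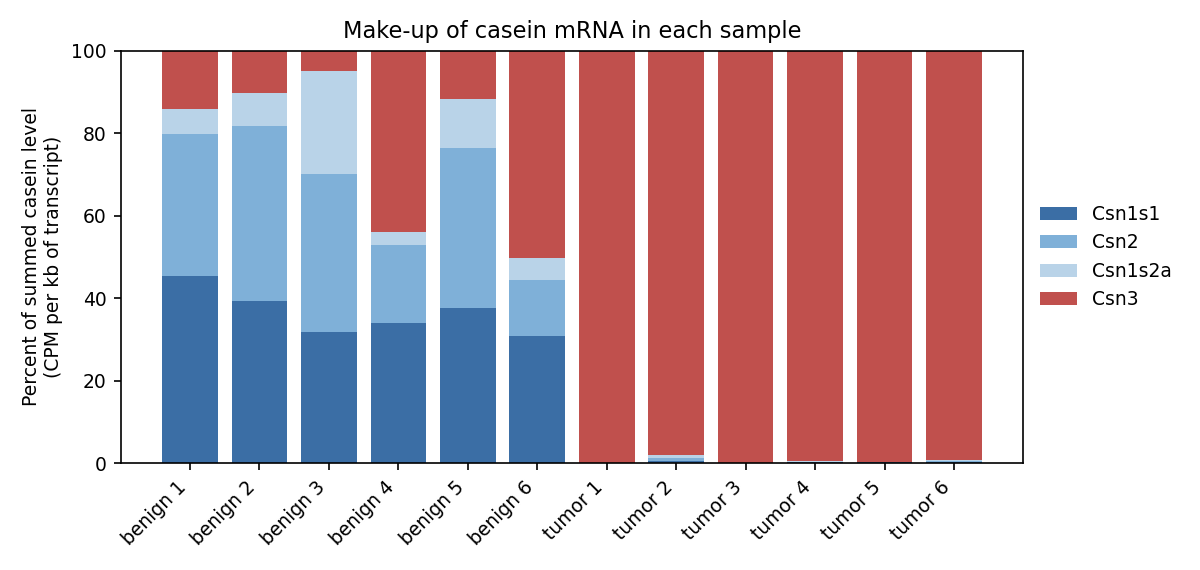
Share of each of 4 caseins in their summed level (CPM per kb of annotated transcript, in percent) in the 6 benign samples and 6 tumors, each bar adding up to 100 percent. Csn3 (red) takes 4.96 to 50.1 percent of the bars of benign tissue and at least 97.9 percent of the bars of tumors.

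The order of the levels per kb differed between the groups. In benign tissue Csn2 came highest with 1084 ± 1237 CPM per kb, followed by Csn1s1 (1010 ± 983), Csn1s2a (486 ± 838), Mfge8 (317 ± 71.5) and Csn3 (295 ± 111). The steps between neighbours were smaller than the spread, so neighbours in this order do not differ beyond it. The order also rests on benign sample 3, without which Csn1s1 came highest with 662 ± 546 CPM per kb, then Csn2 (634 ± 627), Mfge8 (329 ± 72.3) and Csn3 (268 ± 99.3), and Csn1s2a fell to 149.6 ± 167. In benign samples 4 and 6 Mfge8 was the highest of the 10, and in benign sample 1 Glycam1. In tumors Csn3 came highest with 5836 ± 3844 CPM per kb, followed by Lalba (1333 ± 1100), Mfge8 (515 ± 517) and Xdh (106 ± 69.9). Csn3 was the highest in all tumors except tumor 6, where it was Lalba. All 10 genes together took 0.480 ± 0.353% of all counts in benign tissue (0.130% to 1.10%) and 1.23 ± 0.73% in tumors (0.256% to 1.81%). Csn3 alone made up 42.1% to 91.6% of the milk gene counts in tumors, and 5.79% to 18.9% in benign tissue.

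The promoter sequence of Csn1s1 is shown because Csn1s1 and Csn2 moved together and both are classical targets of prolactin and STAT5. RefSeq promoters of build GRCm38.p6 matched 7 of the 10 milk genes, and Csn3, Btn1a1 and Xdh had none to search. The 250 bases before the RefSeq start of each gene were searched on both strands for TTCNNNGAA, the palindromic core bound by STAT factors. Of all 32851 promoters of this length, 7.02% hold it. The core was found in Csn1s1, Csn2 and Glycam1, and these letters were not in the windows of Csn1s2a, Wap, Lalba and Mfge8. Its start lay 100 bases before the RefSeq start of Csn1s1, 93 bases before that of Csn2 and 145 bases before that of Glycam1. The 250 bases before Csn1s1 (chr5:87665958-87666207, + strand) are given 5′ to 3′ with the STAT core in capitals.
Csn1s1: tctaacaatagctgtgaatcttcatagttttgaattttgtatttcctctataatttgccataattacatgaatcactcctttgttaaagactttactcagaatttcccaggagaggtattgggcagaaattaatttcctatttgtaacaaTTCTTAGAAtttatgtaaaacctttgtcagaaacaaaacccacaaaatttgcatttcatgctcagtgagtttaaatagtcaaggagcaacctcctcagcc

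The 3 sites are set side by side with 10 bases on either side, from chr5:87666098-87666126 (+ strand), chr5:87699500-87699528 (- strand) and chr15:103565208-103565236 (- strand), again with the core in capitals. In the GENCODE annotation the Csn2 stretch falls in the leader exon of a longer Csn2 transcript.
Csn1s1: tttgtaacaaTTCTTAGAAtttatgtaaa
Csn2: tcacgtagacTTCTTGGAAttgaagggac
Glycam1: gccaactcatTTCCCAGAAacaccaattc
Csn1s2a, which also fell, does not hold the core in its window, chr5:87774200-87774449 (+ strand). In GENCODE Csn1s2a starts at chr5:87774567, and the bases between this window and that start were not searched. A match of letters is a description of the sequence and not a site of binding.

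Lalba encodes alpha-lactalbumin, the subunit that turns a galactosyltransferase into lactose synthase. It had 1.30, 2.75, 1.85, 37.4, 7.87 and 24.3 CPM in benign samples 1 to 6, and 1196, 465, 784, 2503, 33.2 and 1186 CPM in tumors 1 to 6. All tumors except tumor 5 lay above every benign sample, and tumor 5, at 33.2 CPM, lay between benign samples 6 and 4. Its log2 fold change was 6.36 (standard error 1.12, edgeR adjusted p = 0.00033). It was 7.09 without benign sample 4 and 8.02 against benign samples 1, 2 and 5 alone. B4galt1, the galactosyltransferase that Lalba acts with, was called higher too, from 142 ± 18.7 to 233 ± 45.2 CPM (log2 fold change 0.71, edgeR adjusted p = 0.0015). The stretch before Lalba outside its annotated exons (chr15:98482722-98482933, - strand) is shown as the upstream sequence of a milk gene that rose, and holds no STAT core. Csn3, the other milk gene called higher, had no promoter sequence to search. The part of the core in the direction of change was not tested.
Lalba: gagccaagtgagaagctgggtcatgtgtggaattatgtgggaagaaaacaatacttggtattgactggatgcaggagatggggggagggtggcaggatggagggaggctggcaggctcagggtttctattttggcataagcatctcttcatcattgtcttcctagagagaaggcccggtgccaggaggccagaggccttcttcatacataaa

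Wap encodes whey acidic protein, a major whey protein of rodents with a protease-inhibitor fold. It was low in every sample, with a lowest, median and highest of 0, 2.21 and 4.37 CPM among benign samples and 0, 1.0 and 8.91 CPM among tumors. Tumors 1 and 5 and benign sample 6 had no counts. Wap had a log2 fold change of 0.25 (standard error 1.07, edgeR adjusted p = 0.86), and its sign turned to -0.27 when samples were scaled to luminal markers.

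Glycam1 encodes a mucin-like protein of milk that is also made by the high endothelial venules of lymph nodes. It had 541, 10.4, 42.9, 0, 25.3 and 0 CPM in benign samples 1 to 6, and 0 counts in all 6 tumors. Set against the level of 3 counts per library, the smallest that was read as detection, it was at least 263-fold lower in tumors, and at least 40.0-fold lower without benign sample 1. Glycam1 did not pass the expression filter. The exact two-sided permutation test of log2 CPM over all regroupings of 6 samples against 6 gave p = 0.061, where the smallest p it can give is 0.0022. The same exact permutation test gave p = 0.015 without benign sample 4 or without benign sample 6, the samples with no Glycam1 counts. Benign sample 1, with the highest Glycam1, was also the sample with the lymph node transcripts, among them Cd79a at 152 CPM and Chst4 at 6.11 CPM. In benign samples 2, 3 and 5, where Glycam1 was 10.4, 42.9 and 25.3 CPM, the 7 lymph node genes summed to 7.04, 6.86 and 3.50 CPM. The venule genes among them differed. Madcam1 was 5.37, 3.82 and 3.30 CPM in benign samples 1, 2 and 3 and 0.178 to 0.375 CPM in the others. Fut7 was 6.48 CPM in benign sample 1 and 0.264 to 0.836 CPM in the others. Outside benign sample 1, Chst4 had counts only in benign sample 5 (0.250 CPM). The part of lymph node tissue in the Glycam1 level was not tested.

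Btn1a1 encodes butyrophilin, the membrane protein that links the fat droplet coat to the globule membrane. It had 55.0, 119, 62.0, 149.6, 58.2 and 107 CPM in benign samples 1 to 6, and 3.11, 209, 176, 193, 1.66 and 31.8 CPM in tumors 1 to 6. Tumors 2, 3 and 4 lay above every benign sample and tumors 1, 5 and 6 lay below every benign sample. The means of 91.7 ± 39.2 and 102 ± 100 CPM were therefore close, with a log2 fold change of 0.16 (standard error 0.86, edgeR adjusted p = 0.89) that turned to -0.63 under luminal scaling.

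Mfge8 encodes MFG-E8, a globule protein that binds phosphatidylserine and is also made by macrophages. It had 788, 712, 540.2, 901, 549.8 and 547 CPM in benign samples 1 to 6, and 96.0, 2071, 2782, 982, 226 and 406 CPM in tumors 1 to 6. The split was the same as for Btn1a1, with tumors 2, 3 and 4 above and tumors 1, 5 and 6 below the whole benign range. The log2 fold change was 0.70 (standard error 0.64, edgeR adjusted p = 0.37), and -0.08 under luminal scaling. Among tumors, some macrophage markers moved with Mfge8, Btn1a1 and Xdh. Csf1r, the receptor for macrophage colony-stimulating factor, was 96.5, 98.1 and 102 CPM in tumors 2, 3 and 4 and 47.9, 42.2 and 69.5 CPM in tumors 1, 5 and 6. Adgre1, C1qa and C1qb split the tumors in the same way. Lyz2, Cd68 and Mrc1 did not. In tumor 4 they were 72.4, 15.5 and 12.3 CPM, for Lyz2 and Cd68 the lowest of all tumors and for Mrc1 below tumors 1 and 5. The summed level of all 7 macrophage markers was 498, 486 and 360 CPM in tumors 2, 3 and 4, 391, 294 and 332 CPM in tumors 1, 5 and 6, and 513 to 1112 CPM in benign tissue. This split of the tumors was not particular to macrophage markers. Csn2, Csn1s2a and Wap split the tumors in the same way, and Csn1s1, Csn3 and Lalba did not. Of the other milk genes, Wfdc18 and Muc1 were among those that did so, and Trf and Pigr among those that did not. Of the luminal markers, Cdh1, Epcam, Cldn4 and Cldn7 did so, and Krt7, Krt8, Krt18, Krt19 and Cldn3 did not. The part of macrophages or of luminal cells in the Mfge8 level was not tested. Against benign samples 1, 2 and 5 alone the log2 fold changes were 0.72 for Mfge8 and 0.43 for Btn1a1, neither called.

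Xdh encodes xanthine dehydrogenase, an enzyme of purine breakdown that also takes part in fat globule release. It had 245, 279, 222, 370.2, 242 and 407 CPM in benign samples 1 to 6, and 149, 468, 749, 987, 285 and 278 CPM in tumors 1 to 6. Tumors 2, 3 and 4 were again above every benign sample, tumors 5 and 6 were inside the benign range, and tumor 1 was below it. The log2 fold change was 0.72 (standard error 0.39, edgeR adjusted p = 0.13). The call for Xdh depended on the processing, since DESeq2 and a scaling by total counts alone called it higher, at adjusted p = 0.091 and 0.073, and edgeR did so without tumor 1, 5 or 6 (adjusted p = 0.028, 0.071 and 0.073). Under luminal scaling it was 0.06 (edgeR adjusted p = 0.93), and against benign samples 1, 2 and 5 alone it was 0.97 (edgeR adjusted p = 0.16).

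All milk genes except Glycam1, which had no counts in any tumor, differed more between tumors than most genes did. Over all genes tested the median SD of log2 CPM was 0.29 among tumors and 0.33 among benign samples. Btn1a1 had an SD of 3.06 among tumors and 0.62 among benign samples. Mfge8 had an SD of 1.89 among tumors, larger than that of 99.2% of the genes tested, and 0.32 among benign samples, larger than that of 47.7%. For Xdh the SDs were 1.01 and 0.36, larger than those of 94.2% and 54.8% of genes. For these 3 globule genes and for Csn3 (1.57 and 0.59), the highest tumor exceeded the lowest by 126-fold (Btn1a1), 29.0-fold (Mfge8), 6.62-fold (Xdh) and 11.3-fold (Csn3), against 2.72-fold, 1.67-fold, 1.83-fold and 2.78-fold in benign tissue. The 3 calcium-sensitive caseins were uneven in both groups, with SDs of 1.93 to 2.54 among tumors and 1.72 to 2.64 among benign samples. None of the 19 groups of 6 values held a sample that met the Dixon criterion for an outlier.

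The relation of the genes to each other was taken within tumors and within benign tissue, over 6 samples each, as Pearson's r of log2 CPM with an exact permutation p over the 720 pairings. The family held 73 pairs, 28 in tumors (8 genes) and 45 in benign tissue (10 genes), for genes that had more than 3 counts in at least 4 samples of the group, which left out Wap and Glycam1 in tumors. Adjusted p-values are over all 73 pairs. Csn1s1 and Csn2 were the closest pair in benign tissue, with r = 0.999 (rho = 1.0, exact permutation p = 0.0014, adjusted p = 0.034). They were related in tumors as well, with r = 0.92 (rho = 0.83, exact permutation p = 0.0069, adjusted p = 0.072) and 0.74 without tumors 2 and 4. Csn1s2a followed them, with r = 0.96 to Csn2 in tumors (rho = 1.0, exact permutation p = 0.0014, adjusted p = 0.034) and r = 0.97 to Csn1s1 in benign tissue (rho = 1.0, exact permutation p = 0.0014, adjusted p = 0.034). In tumors the r of 0.93 between Csn1s1 and Csn1s2a (rho = 0.83, exact permutation p = 0.013, adjusted p = 0.092) fell to 0.52 without tumors 2 and 4, so it rests on those samples. In benign tissue the luminal marker Cdh1 and the alveolar factor Elf5 ran in a similar order to Csn1s1. Cdh1 was 243 to 274 CPM in benign samples 2, 3 and 5, and 134, 99.8 and 63.9 CPM in samples 1, 4 and 6. For Elf5 these were 265 to 325, and 153, 116 and 48.3 CPM. Of the other luminal markers, Epcam, Cldn3 and Cldn7 also put benign samples 2, 3 and 5 above samples 1, 4 and 6. Krt7, Krt8, Krt18, Krt19 and Cldn4 did not, with Krt19 at 555 CPM in benign sample 4 and 283 CPM in benign sample 3. The sum of all 9 luminal markers did not follow the order of Csn1s1, with 1816 CPM in benign sample 4 and 1525 CPM in benign sample 3. The part of epithelial content in the benign relations was not tested.

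The relation of Csn3 to the other caseins did not pass the threshold in either group. Among tumors its r was 0.28 to Csn1s1 (rho = -0.20, exact permutation p = 0.68), 0.33 to Csn2 (rho = -0.09, p = 0.52) and 0.36 to Csn1s2a (rho = -0.09, p = 0.52). In benign tissue its r to the same genes was 0.72, 0.71 and 0.75 (rho = 0.83 for each), with adjusted p = 0.27, 0.28 and 0.24 by exact permutation. Lalba and Csn3, the 2 genes that rose, had r = 0.49 among tumors (rho = 0.20, exact permutation p = 0.36), and -0.003 without tumors 5 and 6. With 6 samples these values do not show that the genes are unrelated.

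The 3 globule genes had a high r with each other among tumors. Btn1a1 and Mfge8 had r = 0.91 (rho = 0.77, exact permutation p = 0.026, adjusted p = 0.11), Xdh and Mfge8 had r = 0.85 (rho = 0.77, p = 0.044, adjusted p = 0.15) and Btn1a1 and Xdh had r = 0.83 (rho = 0.66, p = 0.050, adjusted p = 0.16). None passed the threshold of 0.1 after adjustment. All 28 pairs in tumors had a positive r, with a median of 0.59, and 3 passed the threshold. Without the 2 samples farthest from the median, 9 of the 28 turned negative and the median r was 0.72. By rank some pairs were negative with all 6 tumors, such as Csn1s1 with Lalba (rho = -0.31) and with Csn3 (rho = -0.20). The pairs that passed hold Csn2 or Csn1s2a, which had few counts in tumors 1 and 5 (1 and 7 for Csn2, 3 and 4 for Csn1s2a). Pairs of other genes over these tumors were not taken for comparison.

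In benign tissue 21 pairs were positive and 24 negative, with a median of -0.06, and 10 passed the threshold. Wap followed Csn1s1 (r = 0.96, rho = 0.94, exact permutation p = 0.0042, adjusted p = 0.061). Xdh ran against Csn1s1, with r = -0.90 (rho = -0.94, exact permutation p = 0.013, adjusted p = 0.092) and -0.74 without benign samples 3 and 6. Lalba ran against Glycam1, with r = -0.92 (rho = -0.93, exact permutation p = 0.014, adjusted p = 0.092) and -0.60 without benign samples 4 and 6, both of which had no Glycam1 counts. Benign samples 4 and 6 also held skeletal muscle RNA and the largest sums of white fat markers (19290 and 15748 CPM), and the part of these in the negative relations was not tested. On the CPM scale none of these 3 pairs passed the threshold, with r = 0.84, -0.74 and -0.42 and adjusted p = 0.11, 0.27 and 0.49 by exact permutation.

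**Figure D4:**
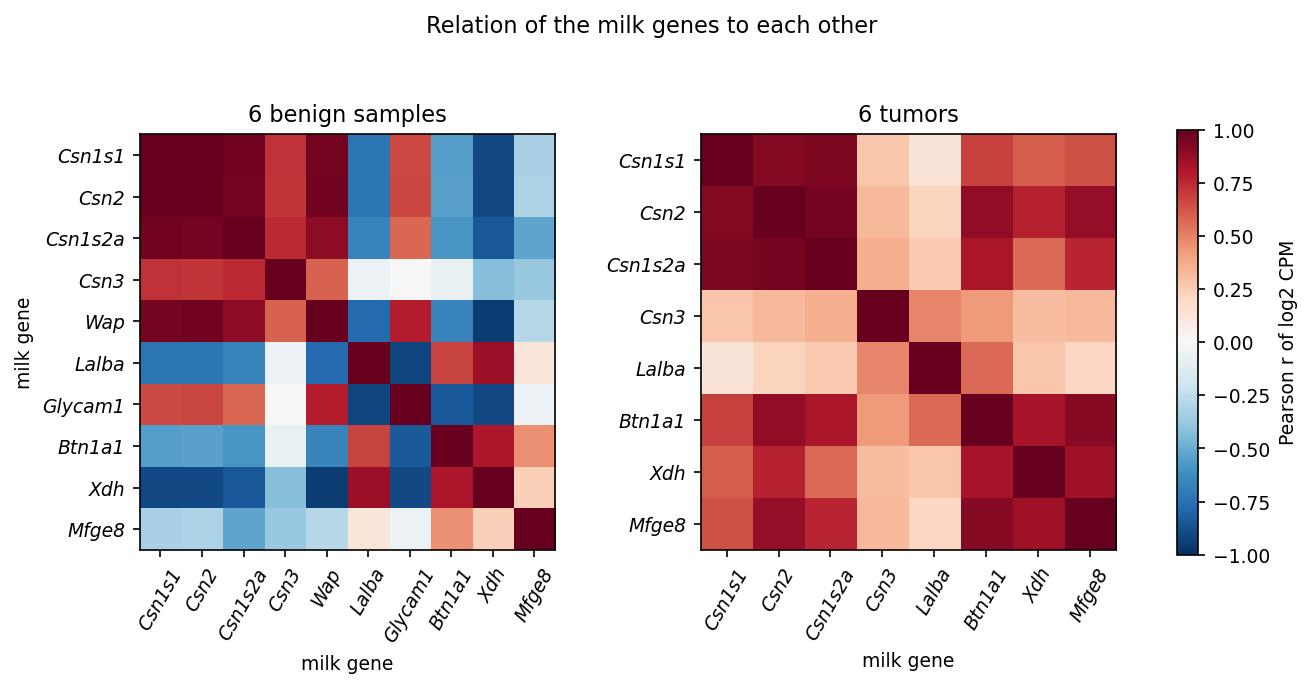
Pearson r of log2 CPM between milk genes over the 6 benign samples (10 genes) and over the 6 tumors (8 genes), from -1 (blue) to 1 (red). In benign tissue the caseins and Wap are red among themselves and blue against Xdh, Lalba is blue against Csn1s1, Csn2, Csn1s2a and Wap and near 0 against Csn3, and among tumors every pair is positive, with Csn3 and Lalba pale against the rest.

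The caseins lie in 1 stretch of chromosome 5, with Csn1s1 at chr5:87666208-87682578, Csn2 at chr5:87692624-87699630, Csn1s2a at chr5:87774567-87788797 and Csn3 at chr5:87925579-87932665 in GRCm38. Csn3 starts 259.4 kb beyond the start of Csn1s1. Of 13 genes of the table from 500 kb before to 500 kb after the casein interval, 5 passed the filter. A higher mean in tumors was seen for 10 of the 13, and the 3 with a lower mean were Csn1s1, Csn2 and Csn1s2a. Some of the 10 rest on few counts. Sult1e1 had 1 count over all benign samples and 10 over all tumors, and Sult1d1 had 12 and 61. The share of all genes with a higher mean in tumors is not given here, so this count does not set the locus apart. Csn1s2b, a casein-like gene between Csn1s2a and Csn3, was low in both groups, with 0.237 ± 0.158 CPM for benign samples and 1.86 ± 1.11 CPM for tumors. For Csn1s2b 5 tumors exceeded every benign sample (exact two-sided permutation p = 0.0087).

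Odam, Smr2, Gm7714 and Prol1, which lie around and beyond Csn3, had no counts in any benign sample. The share of all genes without benign counts is not given here either. In tumors Odam, Smr2 and Prol1 had counts in all 6, between 4 and 107 for Odam, 8 and 819 for Smr2, and 34 and 1537 for Prol1, while Gm7714 had 9 counts in 2 tumors. Prol1 passed the filter and was called higher (edgeR adjusted p = 0.0017), with 207 CPM in tumor 4 and 4.68 to 28.3 CPM in the other 5 tumors. It was also called without tumor 4 (edgeR adjusted p = 0.00011). Tumor 4 held the salivary gland genes Prb1 and Pip as well, and Smr2, highest in tumor 6 with 89.9 CPM, is itself a gene of salivary glands. The part of salivary tissue was not tested. Smr2, Smr3a and Prol1 belong to a family of related secreted proteins, and how reads that match several of them were shared was not tested.

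**Figure D5:**
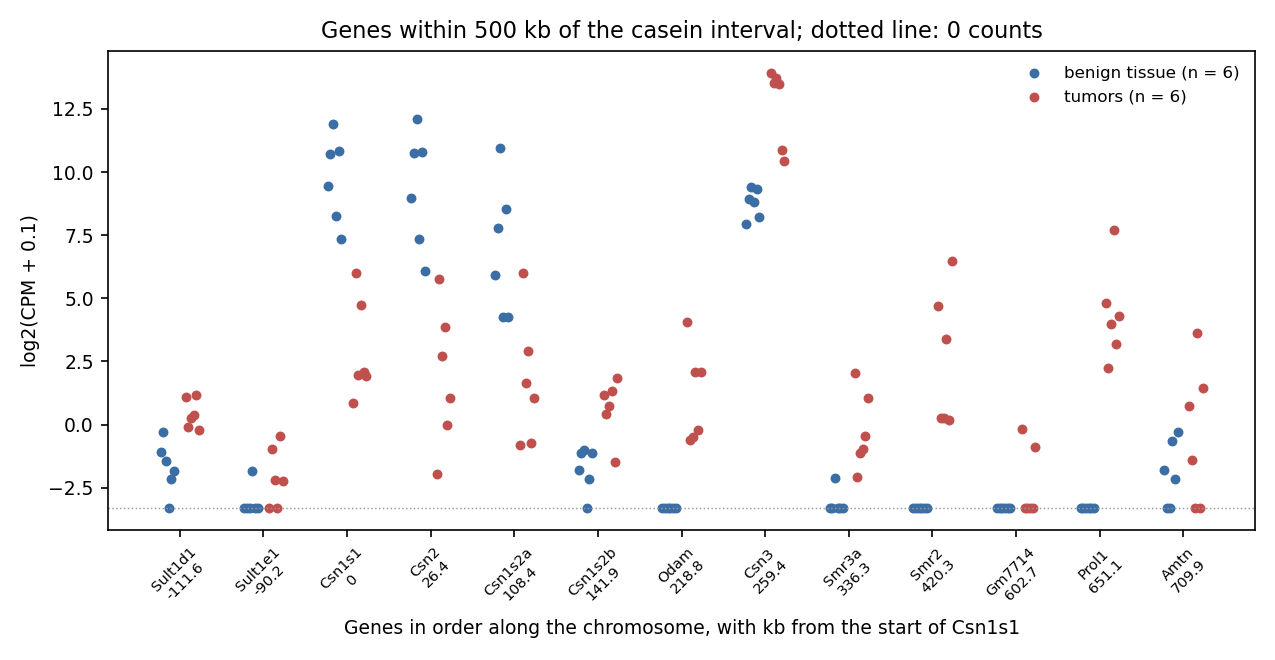
Log2 of CPM plus 0.1 for the 13 genes of the table around the caseins, in order along the chromosome with the distance in kb from the start of Csn1s1, for 6 benign samples (blue) and 6 tumors (red). The dotted line marks 0 counts. Tumor points lie below benign points for Csn1s1 and Csn2, mostly below for Csn1s2a, and above for Csn3 at 259.4 kb.

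Of 23 other genes of milk secretion listed, 19 passed the filter, and 11 were called higher, 3 lower and 5 not, beside 28.2% higher and 34.8% lower over all genes tested. Their median log2 fold change was 0.78, and 8 were called higher under luminal scaling. The largest rises were in Pigr, the receptor that carries IgA into milk (log2 fold change 4.02, standard error 0.75, edgeR adjusted p = 0.00056), Spp1, which encodes osteopontin (3.79, 1.05 and 0.0077), and Trf, which encodes transferrin (3.69, 0.40 and 5.1e-06). Trf rose from 1551 ± 415 to 20087 ± 10858 CPM, and was highest in tumor 5, where Csn3 and Lalba were low. The largest falls were in Fabp3, a fatty acid binding protein of mammary gland and muscle (-8.42, 1.58 and 0.00056), Cel, the bile salt-stimulated lipase (-5.66, 0.45 and 3.1e-07), and Plin2, the coat protein of lipid droplets (-1.10, 0.27 and 0.0041). Fabp3 was 71.0, 280 and 121 CPM in benign samples 3, 4 and 6, those with muscle RNA, and 2.15 to 3.71 CPM in the other 3. The summed level of 5 brown fat markers was 105, 2477 and 575 CPM in the same samples 3, 4 and 6, and 24.7 to 104 CPM in the other 3. Against benign samples 1, 2 and 5 alone the log2 fold change of Fabp3 was -3.63 (edgeR adjusted p = 0.0075). White fat RNA also moved with Plin2, since all 8 white fat markers were called lower in tumors, with summed levels of 7779 to 19290 CPM in benign tissue and 16.4 to 122 CPM in tumors. The part of muscle, brown fat and white fat RNA in these falls was not tested.

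Of 21 regulators of milk genes listed, all passed the filter, and 7 were called higher, 9 lower and 5 not, with a median log2 fold change of -0.19. Beside 28.2% and 34.8% of all genes tested, these counts are near the background. Prlr, the prolactin receptor, had means of 150.1 ± 73.5 CPM (benign) and 134 ± 50.9 CPM (tumor; log2 fold change -0.17, edgeR adjusted p = 0.68), and its sign turned with the samples left out. Stat5a had 152 ± 17.8 and 132 ± 35.9 CPM (-0.21, edgeR adjusted p = 0.37). Stat5b was called slightly higher at 0.26 (edgeR adjusted p = 0.067), but stood at -0.14 under luminal scaling and was not called without benign sample 4 or 5 (0.24 and 0.22, edgeR adjusted p = 0.12 and 0.14). Elf5, a factor of alveolar cells, was called higher at 0.90 (standard error 0.38, edgeR adjusted p = 0.061), from 202 ± 112 to 377 ± 91.8 CPM, and was not called under luminal scaling (0.81, edgeR adjusted p = 0.14) or without benign sample 4 (0.78, edgeR adjusted p = 0.12). The largest rises were in Socs2, a cytokine-induced feedback inhibitor (3.57, edgeR adjusted p = 3.7e-08), Id2 (2.43, 0.00020) and Cebpb (1.33, 0.00040), both factors needed for alveolar growth. The largest falls were in Tnfsf11, the RANKL cytokine of hormone-sensing cells (-7.75, edgeR adjusted p = 3.1e-06), Foxa1, their pioneer factor (-6.03, 5.9e-09), and Pgr, the progesterone receptor (-4.71, 1.6e-05).

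Many cell type markers differed between the groups. Over all genes tested, 28.2% were called higher and 34.8% lower. Of 9 luminal epithelial markers, 6 were called higher in tumors and 1, Krt19, lower, and their sum was 959 to 2534 CPM in benign tissue and 2659 to 4400 CPM in tumors. All 8 myoepithelial markers, 5 fibroblast markers and 5 endothelial markers were called lower, as were 6 of 7 macrophage markers and the 5 skeletal muscle markers tested. Of 4 brown fat markers 2 were called lower and 1 (Ppargc1a) higher, too few to set apart from the shares over all genes. Of 5 salivary gland markers in the table only Amy1 passed the filter, and it was called lower, while the other 4 had higher means in tumors. Dcpp1 had 0 to 3 counts in benign samples and 11 to 75 in tumors, Prb1 had 53 and 6 counts and Pip 28 and 1 in tumors 4 and 5 and none elsewhere, and Smr2 is described above. DESeq2 called 3 of the 5 higher. Scaled to the 9 luminal markers in place of TMM, which moved the median log2 fold change of all genes from -0.06 to -0.39, Csn3 stood at 4.06 and Lalba at 5.95, and Csn1s1, Csn2 and Csn1s2a at -6.88, -7.36 and -5.75. All 5 kept their direction and their call. The log2 fold changes of the 9 markers ran from -4.74 for Krt19 to 2.24 for Epcam, so opposite moves partly cancel in this scaling. Its shift was small beside the 5 changes, so it could hardly have undone these calls. The part of luminal cell content was not tested.

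By the likeness of their pattern over the 6 tumors, the 10 genes nearest to the mean log2 CPM of the 4 caseins, among 9964 genes with at least 10 CPM in tumors, were Helb (r = 0.996), Plxna1 (0.989), Ednra (0.982), Klc1 (0.969), Ptprc (0.964), Ankfy1 (0.964), Gosr1 (0.962), Dennd5a (0.955), Rab31 (0.955) and Mast4 (0.954). These are the highest of many correlations over 6 points and are given as a description. Of these genes, Helb, Plxna1, Ednra, Klc1, Ptprc, Dennd5a and Rab31 were called lower in tumors, Ankfy1 and Gosr1 higher, and Mast4 was not called.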

How the data were processed

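Poly A RNA of snap-frozen tissue was sequenced in paired reads from a directional library. Per the submitters' notes the tools were Trim Galore, Salmon and DESeq2 with build mm10, and their versions are not given in the sources used here. The authors deposited an estimated count for each gene and sample, rounded to whole numbers and not scaled for depth. All 12 columns were matched to samples by their labels.

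Genes were filtered with filterByExpr by group (minimum count 10, minimum total 15), scaled by TMM and compared with edgeR 4.0.16 (R 4.3.3, quasi-likelihood test, two-sided, Benjamini-Hochberg adjustment), with genes called at 0.1 as in the study. CPM are scaled by TMM, and log2 CPM used 2 added counts. Genes below the filter were compared by exact permutation of log2 CPM. Lengths and positions came from GENCODE M21 (longest coding transcript), and promoters from RefSeq. In a simulation of this comparison with 200 of 13191 genes changed, edgeR found 89% of them with 4.81% false calls, and made 0 calls when none was changed. DESeq2 found 94% of the 200 with 22% false calls, so its calls are less strict. In the data 8314 genes were called, far more than were changed in the simulation, so these rates need not hold there.

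The members and gene lists were chosen with earlier results of these data known, and 1 gene of the lists is not reported here. Named are the 10 members, the 3 largest rises and falls among the called genes of the milk and regulator lists, Prlr, Stat5a, Stat5b, Elf5, Csn1s2b and Erbb2, and the 10 genes nearest to the caseins over tumors. Other neighbours of the caseins, B4galt1 and markers of other tissues were named after their values were seen. The study treats the samples of a group as biological replicates, and every pair of them differed by more than sampling noise. Alternatives were DESeq2 1.42.0, other scalings and filters, calls at 0.05, a block for the replicate number, and fits without each sample in turn. The fit to benign samples 1, 2 and 5 alone was added after seeing the data.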

Additional observations from a re-analysis of the deposited data

How the results depend on the processing

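Csn1s1, Csn1s2a, Csn2, Csn3 and Lalba kept their direction and their call in every alternative in which they could be fitted. When every sample had to hold at least 10 counts, Csn1s2a, Csn2, Lalba and Wap were not tested, and the members called lower fell to 1. The sign of Wap turned to -0.27 (luminal scaling), -0.30 (replicate block), -0.61 (without tumor 3) and -0.11 (benign samples 1, 2 and 5 alone), that of Btn1a1 to -0.63 (luminal scaling), -1.06 (replicate block), -0.12 (without tumor 2) and -0.05 (without tumor 4), and that of Mfge8 to -0.083 (luminal scaling) and -0.090 (replicate block). Prlr turned to 0.095 without benign sample 4 (range without 1 sample -0.32 to 0.095), 0.016 without tumor 3 and 0.14 against benign samples 1, 2 and 5, and Stat5b to -0.14 under luminal scaling. None of these turned values was called.

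Xdh was called higher by DESeq2 (0.76), with total counts (0.82), and under the filters of at least 1 count in total (0.81) or at least 10 in every sample (0.78), stood at 0.06 under luminal scaling, and ranged from 0.46 to 0.97 over the fits without 1 sample. Leaving out 1 sample moved the log2 fold changes from -0.61 to 0.57 for Wap and from -0.12 to 0.48 for Btn1a1. The permutation p of Glycam1 was 0.015 to 0.061 without 1 sample, the lower without benign sample 4 or 6. Pairs of milk genes past the threshold in benign tissue numbered 3 in place of 10 on the CPM scale.

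Calls in the lists moved as follows. With DESeq2 the lower calls were 6 for other milk genes, 9 for muscle and 2 for lymph node, and the higher calls 3 for salivary gland. With at least 1 count in total they were 6, 9, 7 and 4. With at least 10 counts in every sample the lower calls were 1 for other milk genes, 5 for regulators, 3 for myoepithelial, 3 for white fat, 0 for brown fat and 0 for muscle. With luminal scaling 8 other milk genes, 4 regulators and 0 brown fat markers were called higher and 2 luminal markers lower. Against benign samples 1, 2 and 5 alone the lower calls were 5 for other milk genes, 1 for brown fat, 1 for muscle and 1 for lymph node, and the higher calls 2 for salivary gland. Without 1 sample the lower calls for muscle ranged from 5 to 9 and the higher calls for salivary gland from 0 to 1. The cause was not tested, apart from filters that change which genes are tested. All genes called were 3720 higher and 4594 lower, and 1165 and 4021 under luminal scaling.

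The study states that tumors and benign samples of the transcriptome came from different mice. Deviations of same-numbered samples correlated between -0.12 and 0.10, and 0 tumors correlated best with their own number. RNA of other tissues differed widely between benign samples, so these low values cannot by themselves show that same-numbered samples are unrelated. With the replicate block 3473 genes were called higher and 4237 lower, and the log2 fold change of Csn3 was 3.93. Tests cover 6 samples a group, and for Wap and Csn1s2b low counts add to the error.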
